A study of Homo sapiens with 26 samples.

Results

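The cytosolic ribosomal protein genes are described here as a group of 73 genes among the 58735 of a human expression table. A gene belonged to the group if it was protein-coding, lay on an autosome or on chromosome X, had a symbol of the RPL or RPS series (digits with at most 1 letter A or X) or was RPSA, RPLP0, RPLP1 or RPLP2, and had a mean of at least 10 FPKM over all 26 libraries. FPKM is the number of fragments per kilobase of gene length, scaled to the size of the library. Of 77 genes that matched by name, 73 reached that mean, 44 of the large and 29 of the small ribosomal subunit, spread over 20 chromosomes. The last genes inside were RPL26 with a mean of 11.45 FPKM, RPS29 with 13.8 and RPS15A with 14.4. Outside lay 4 genes, among them RPL17 with 9.94 FPKM, RPL36A with 1.39 and RPS10 with 1.05. Each of the 4 is overlapped on its own strand by another coding gene, so that reads could have been split between annotations, and the same holds for 5 of the 73 members, RPL36, RPS13, RPL22, RPS15A and RPL26.

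The libraries came from 3 established human cancer cell lines, HCT116 and DLD1 from colorectal tumours and CAL51 from a triple-negative breast tumour. Tetraploid (4N) cells had been made by blocking cytokinesis for 20 hr, with 75 µM blebbistatin, a myosin inhibitor, in HCT116 and CAL51, or with 1.5 µg/mL dihydrocytochalasin, an actin inhibitor, in DLD1. After 48 hr of recovery, single cells were grown into clones, and the study divided the 4N clones into small and large by cell and nuclear size. Each line was also sequenced as the uncloned parental culture (1 library) and as diploid (2N) clones (2 libraries). HCT116 gave 3 small and 3 large 4N clones, DLD1 gave 3 and 4, and CAL51 gave 1 and 3. Parental cultures and 2N clones had no drug, so within a line tetraploidy and drug exposure cannot be told apart. Every clone descends from 1 cell, and with 1 small 4N clone in CAL51, clone and class cannot be told apart there. The 4N clones of DLD1 had another drug than those of HCT116 and CAL51, so drug and line cannot be told apart between them. CAL51 also differs from the colorectal lines in tissue of origin.

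A ribosome is built from 2 subunits of ribosomal RNA and about as many different small proteins as there are genes in the group, nearly all of them present in 1 copy per ribosome. Their messenger RNAs are among the most abundant in a growing cell, and most begin with a 5' terminal oligopyrimidine (TOP) tract, a C at the first base followed by a run of C and T, through which mTOR signalling and the protein LARP1 control translation and stability. Loss of a single copy of some of these genes causes Diamond-Blackfan anaemia, and RPL5 and RPL11, when left free of ribosomes, bind MDM2 and stabilise p53.

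Start regions are printed because the tract is the sequence feature that the group is known to share and that the choice of members did not use. Of the 73 members, 59 had an entry in the RefSeq promoter sequences (GRCh38.p14). The following 8 lines each show 20 bases before the annotated start and 20 bases from it, on the strand of the gene, with an uninterrupted tract that opens with C at the start in capitals. They are some of the members that the results below turn on, together with RPL41, one of the most highly expressed. RPL3, RPS27A and RPS29, not printed, have no tract at the start by the rule given below.
RPL13A: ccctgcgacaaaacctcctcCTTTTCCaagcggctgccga
RPL12: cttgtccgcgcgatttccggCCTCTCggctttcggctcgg
RPLP2: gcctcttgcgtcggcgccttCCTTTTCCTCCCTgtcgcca
RPL22: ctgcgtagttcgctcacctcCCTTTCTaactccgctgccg
RPL41: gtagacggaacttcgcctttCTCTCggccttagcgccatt
RPS28: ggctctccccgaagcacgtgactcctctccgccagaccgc
RPL9: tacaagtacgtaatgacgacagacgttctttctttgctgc
RPL4: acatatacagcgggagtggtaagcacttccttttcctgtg
The windows are chr19:49487588-49487627 (+) for RPL13A, chr9:127451387-127451426 (-) for RPL12, chr11:809947-809986 (+) for RPLP2 and chr1:6199576-6199615 (-) for RPL22. Those of the other members are chr12:56116613-56116652 (+) for RPL41, chr19:8321476-8321515 (+) for RPS28, chr4:39458903-39458942 (-) for RPL9 and chr15:66504836-66504875 (-) for RPL4.

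A C at the annotated start followed by at least 4 more pyrimidines was found in 40 of the 59 members (67.8%). The search used the gene's own strand alone, at the start position only. The same pattern was present in 4.04% of all 27305 promoters in the table and in 5.14% of the 9565 promoters of other tested genes. Among the members with a tract, its median length was 8 bases and the longest, in RPL39, had 19. When the tract was allowed to open within 10 bases of the start, 53 members (89.8%) and 33.3% of all promoters held one. The printed windows of RPS28, RPL9 and RPL4 have no such tract at the annotated base, which says only that these letters are not at that position. Among other genes known for TOP messages 9 of 15 had the pattern, against 5 of 69 genes for mitochondrial ribosomal proteins, whose messages are not of this class.

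Reads assigned to genes numbered between 23.5 M and 44.5 M (median 32.5 M) and mitochondrial transcripts took from 2.42% to 10.1% of them. Markers of the labelled tissues were checked first. Of 10 genes of colon epithelium, 8 had a median of at least 1 FPKM in DLD1, 5 in HCT116 and 3 in CAL51. Of 8 breast genes 3 did so in CAL51, where KRT19, ERBB2 and VIM were above that level and GATA3, ESR1 and PGR were not. KRT19 and ERBB2 were also above it in HCT116 and DLD1 (2 of 8 in each). The 8 breast genes summed to a median of 807 FPKM in HCT116, 388 in DLD1 and 58.2 in CAL51, so this list was not highest in CAL51. None of 4 leukocyte and none of 3 endothelial markers reached a median of 1 FPKM in any line. Of 3 fibroblast markers, COL1A1 reached it in HCT116 and PDGFRB in CAL51, where the 3 summed to 0.736 to 44.6 FPKM (median 21.7).

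The levels of the members spanned 2 orders of magnitude. RPS2 (ENSG00000140988, chr16:1962052-1964860), a protein of the mRNA entry site of the small subunit, had the highest mean, 1431 FPKM, followed by RPL8 with 1047, RPS12 with 982, RPL13A with 798 and RPL41 with 712. The lowest were RPL26, RPS29 and RPS15A, given above, then RPL22 with 29.4 and RPL37 with 40.4. The 10 members with most reads took 34.0% of the reads of the group. These levels are per deposited gene length. For the members that length was 1.06 to 33.3 times, with a median of 3.65 times, that of the shortest GENCODE transcript with the principal coding sequence length. RPS29 was the extreme, with 9845 bases against 296. With the shorter length it had 460 FPKM, which was still below most members. That was above RPS15A with 183, RPL22 with 66.3, RPL26 with 54.5 and RPL37 with 42.9, so its place among the 5 lowest depends on the length used. With the shorter lengths RPS2 was again highest, with 3505 FPKM. Ratios of FPKM between libraries for a given gene do not depend on its length. Differences on the log2(FPKM + 1) scale used below do so slightly, since the added 1 shrinks them in genes with low FPKM.

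The group took a smaller share of the reads in CAL51 than in the colorectal lines. In HCT116 the 73 genes took between 5.77% and 7.20% of reads, with a median of 6.74% over 9 libraries. The DLD1 range was 6.21% to 8.25% with a median of 6.82% over 10 libraries. In CAL51 it was 3.43% to 5.02%, with a median of 3.81% over 7 libraries. No CAL51 library reached the lowest library of the other lines. RNA amounts per cell were not measured, and in bulk RNA fewer cells of a type and less RNA per cell cannot be told apart.

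**Figure D1:**
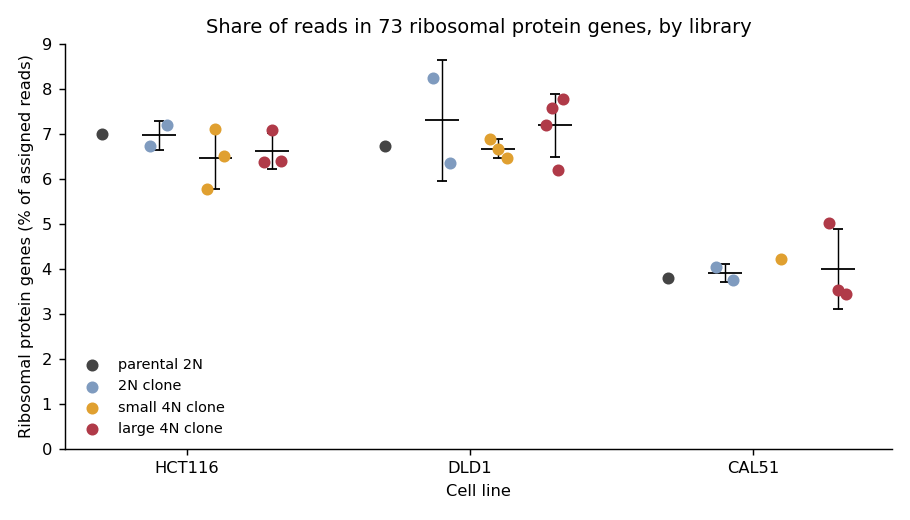
Share of reads on the 73 ribosomal protein genes, in percent of all reads assigned to genes, for each of the 26 libraries by line and class. All 7 CAL51 libraries lie at 5.02% or below, and all HCT116 and DLD1 libraries at 5.77% or above.

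The balance between the subunits also varied by line. Reads on large-subunit genes were 1.71 to 1.82 times those on small-subunit genes in HCT116, 1.57 to 1.67 times in DLD1 and 1.54 to 1.63 times in CAL51. HCT116 did not overlap with the other lines, while DLD1 and CAL51 overlapped. This ratio weighs highly expressed genes most: the median difference between HCT116 and DLD1 was 0.00 for large-subunit and -0.04 for small-subunit genes on the log2(FPKM + 1) scale.

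Line by line, nearly the whole group was lower in CAL51. Against HCT116, 70 of 73 members fell and 1, RPS28, rose, where over all 14835 genes tested 31.8% were lower and 32.8% higher. Against DLD1, 70 fell and 0 rose, with 29.7% of all genes lower and 32.2% higher. These counts rest on limma's moderated test on log2(FPKM + 1) with Benjamini-Hochberg adjustment over all genes and a threshold of 0.05, and the same test on reads (voom) gave equal counts. At an unadjusted p under 0.05 the totals by voom were 71 and 70. The median member difference was -0.74 against HCT116 and -0.77 against DLD1, beside medians of 0.01 and 0.02 over all genes tested. Among 4360 other protein-coding genes with a mean of at least 10 FPKM, 25.5% were lower than in HCT116 and 31.6% lower than in DLD1. Both comparisons use the same CAL51 libraries, and culture or library batch cannot be told apart from line. The members that did not pass against HCT116 were RPL24 at -0.21 and RPS26 at -0.09, and against DLD1 RPS28 at 0.02, RPS4X at -0.11 and RPL3 at -0.19.

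Ranges separated less often than the test called. In 30 members every CAL51 library was below every HCT116 library, a pattern found in 17.5% of all genes tested, and in 43 members every CAL51 library was below every DLD1 library, found in 16.5% of all genes. CAL51 had the lowest median of the 3 lines in 72 of 73 members.

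**Figure D2:**
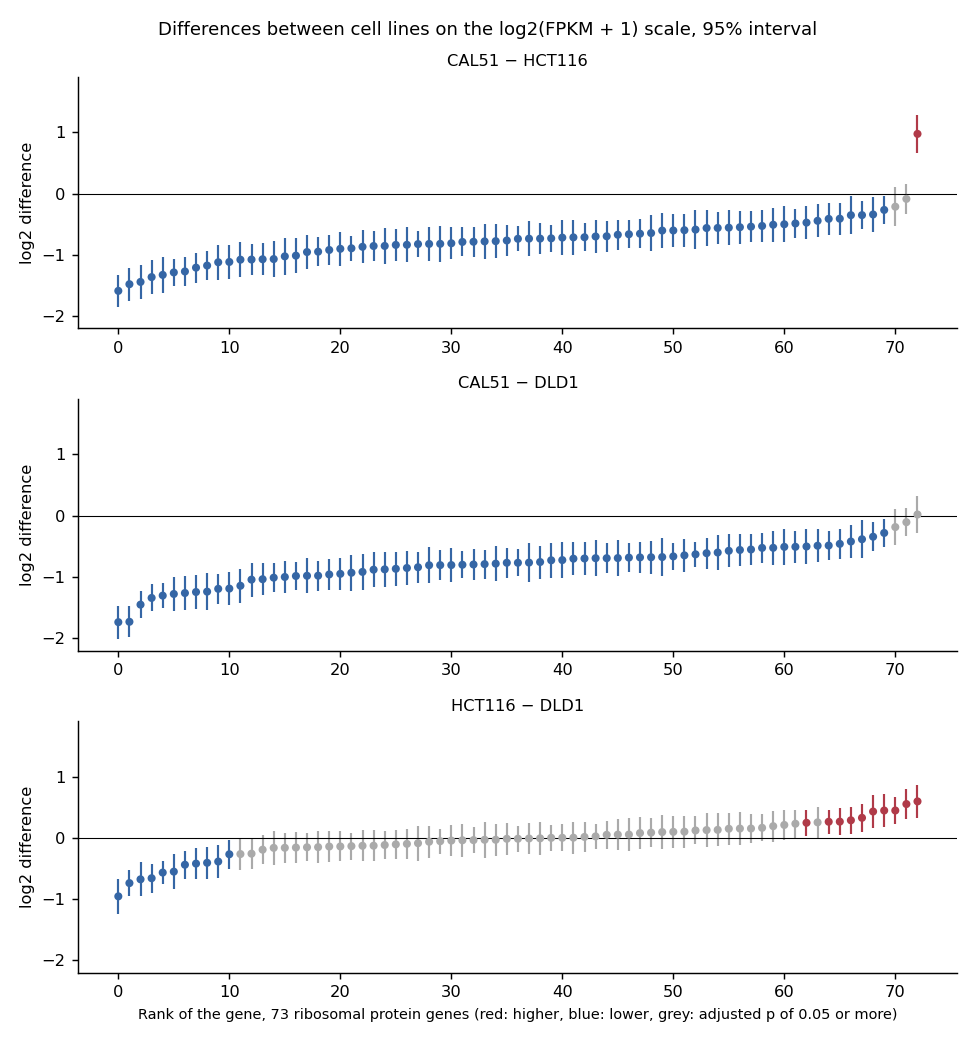
Differences between lines for each of the 73 genes on the log2(FPKM + 1) scale, ordered within each panel, with 95% intervals from the limma model. In the CAL51 panels 70 genes lie below 0 past the threshold in each, and in the HCT116 against DLD1 panel 10 lie above and 11 below.

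Among proteins of the stalk, which recruits elongation factors to the ribosome, all 3 fell in CAL51 against either line. RPLP2 had 330 to 453 FPKM in HCT116 (median 397), 521 to 753 in DLD1 (median 567) and 144 to 248 in CAL51 (median 167), and the 3 ranges did not overlap. Its difference was -1.73 ± 0.12 (SE) against DLD1, limma adjusted p = 6.51e-10, and -1.07 ± 0.12 against HCT116, adjusted p = 4.39e-07. RPLP0, which anchors the stalk, had medians of 703 FPKM (HCT116), 621 (DLD1) and 398 (CAL51). It differed by -0.95 ± 0.11 against HCT116 and -0.68 ± 0.11 against DLD1. For RPLP1 the differences were smaller, -0.50 ± 0.14 and -0.51 ± 0.14. RPL12 lies at the base of the stalk. Its FPKM ran from 404 to 552 in HCT116 (median 494), from 521 to 827 in DLD1 (median 557) and from 149 to 247 in CAL51 (median 172), so that the CAL51 libraries lay far below the rest. The difference was -1.48 ± 0.13 against HCT116 (limma adjusted p = 1.19e-08) and -1.74 ± 0.13 against DLD1 (adjusted p = 1.23e-09).

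Other large-subunit members at the low end against HCT116 included RPL9, RPL38 and RPL13. RPL9 had 61.4 to 92.6 FPKM in HCT116 (median 86.8) and 21.7 to 38.4 in CAL51 (median 25.1), a difference of -1.59 ± 0.13 (limma adjusted p = 3.65e-09), which became -0.84 (adjusted p = 1.86e-05) with its pseudogenes added, as described below. RPL38, with medians of 70.9 and 23.7 FPKM, differed by -1.36 ± 0.13, and RPL13, with 418 and 154, by -1.33 ± 0.14. Against DLD1, RPL26, which takes part in p53 translation and ribosome assembly, was at the low end. It had medians of 5.33 FPKM in CAL51 and 14.97 in DLD1 and differed by -1.30 ± 0.10. Its place in the group leans on DLD1, since its mean was 15.8 FPKM there, 10.9 in HCT116 and 5.92 in CAL51. The minimum mean for members thus selected RPL26 partly on the DLD1 level that the comparison uses. In all of these genes the CAL51 range stayed below that of the line compared.

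In the small subunit, RPS3, a protein of the mRNA entry channel, had 212 to 284 FPKM in HCT116 (median 268), 243 to 330 in DLD1 (median 272) and 94.3 to 143 in CAL51 (median 104). HCT116 and DLD1 overlapped and CAL51 stood below both, with a difference of -1.34 ± 0.10 against DLD1 (limma adjusted p = 2.92e-09) and -1.29 ± 0.11 against HCT116. RPS27A is made as a fusion with ubiquitin. It had 183 to 287 FPKM in HCT116 (median 230), 345 to 427 in DLD1 (median 379) and 116 to 182 in CAL51 (median 136), 3 ranges without overlap, and differed by -1.45 ± 0.11 between CAL51 and DLD1 (adjusted p = 1.26e-09). RPS28 went the other way against HCT116, by 0.97 ± 0.14 (adjusted p = 1.05e-05). It is treated with its pseudogene below, since the direction changes there.

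The lists of members with shared roles followed the group. RPL5 and RPL11, which carry 5S ribosomal RNA into the large subunit, both fell in CAL51, with differences against HCT116 and DLD1 of -0.77 ± 0.12 and -0.96 ± 0.12 for RPL5 and of -0.60 ± 0.13 and -0.65 ± 0.13 for RPL11. Among 21 Diamond-Blackfan anaemia genes, 2 of which are not members, 18 fell and 1 rose against HCT116, and 20 fell against DLD1. Of all genes tested, 31.8% fell against HCT116 and 29.7% against DLD1. RPS19, the gene most often mutated in that disease, differed by -0.56 ± 0.14 against HCT116 and -0.50 ± 0.14 against DLD1. Of 4 genes on chromosome X, with RPL36A counted, 4 fell against HCT116 and 3 against DLD1. RPS4X, the exception against DLD1, had medians of 339 FPKM in HCT116, 277 in DLD1 and 254 in CAL51.

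The colorectal lines differed from each other in fewer members. HCT116 had 10 members higher than DLD1 and 11 lower, where 33% of all genes were higher and 30.6% lower. The median member difference was -0.01, with -0.95 and 0.60 as the extremes. Restricted to the 2N clones and parental libraries, a choice made after seeing the data, 12 members passed, 4 higher and 8 lower, and the totals for CAL51 were 66 against HCT116 and 68 against DLD1. In that restricted fit 49.8%, 52.5% and 48.5% of all genes passed, in the same order.

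Higher in HCT116 were RPL3, RPL9, RPL30, RPL13 and RPL13A at the top. RPL3, which reaches towards the peptidyl transferase centre, had 417 to 661 FPKM in HCT116 (median 609) and 319 to 514 in DLD1 (median 370). These ranges overlapped, and the difference was 0.60 ± 0.13 (limma adjusted p = 0.000497). RPL30, with medians of 95.9 and 67.5 FPKM, differed by 0.45 ± 0.10, RPL13, with 418 and 303, by 0.45 ± 0.13, and RPL13A, with 1060 and 757, by 0.43 ± 0.13. Lower in HCT116 were RPS28, RPS27A, RPL27A, RPLP2 and RPL26. The ranges of RPS27A, given above, did not overlap, with a difference of -0.74 ± 0.10 (adjusted p = 3.74e-06). RPL27A ran from 92.8 to 135 FPKM in HCT116 and from 168 to 234 in DLD1, also without overlap, and differed by -0.68 ± 0.13. RPLP2 differed by -0.66 ± 0.11. RPL26 differed by -0.57 ± 0.09, which became -0.31 with its pseudogenes added, and its place in the group leans on DLD1, as given above.

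Ribosomal protein messages have been copied back into the genome many times, and reads from the gene and from a close copy can be assigned to either. The table holds 1067 pseudogenes named after the 73 members. Over the whole group they took little, from 0.128% to 0.402% of reads per library. For RPS28 and RPL9, and less so for RPL26, their share was large and differed between lines. RPS28P7, a copy of RPS28 on chromosome 11, had 1502 to 2141 FPKM in HCT116, 759 to 1266 in DLD1 and 58.1 to 114 in CAL51. RPS28 itself had 74.9 to 108 FPKM in HCT116 (median 85.2), 132 to 223 in DLD1 (median 166) and 156 to 273 in CAL51 (median 168). Of the reads of RPS28 and its pseudogenes together, the pseudogenes took a median of 67.1% in HCT116, 35.5% in DLD1 and 3.97% in CAL51, with no overlap between lines.

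Adding the pseudogenes to the gene, with their FPKM rescaled by gene length so that the sum follows reads, turned 3 results. The RPS28 difference between CAL51 and HCT116 went from 0.97 to -0.56 (limma adjusted p = 0.00222), and that between HCT116 and DLD1 from -0.95 to 0.01 (adjusted p = 0.952). The sum of reads on RPS28 and its copies had medians of 554 RPM (per 1 M reads assigned to genes) in HCT116, 560 in DLD1 and 377 in CAL51. For RPL9, the pseudogenes, chiefly RPL9P9 on chromosome 15, took a median of 33.5% of the summed reads in HCT116, 60.3% in DLD1 and 61.9% in CAL51. The RPL9 difference between HCT116 and DLD1 went from 0.55 to -0.18 (adjusted p = 0.20) with the pseudogenes added. For RPL26 the pseudogenes took 35.2%, 22.7% and 30.2% of the summed reads, in the same order of lines. Its difference between HCT116 and DLD1 shrank from -0.57 to -0.31 (limma adjusted p = 0.00458) with them added. Between CAL51 and DLD1 it went from -1.30 to -1.22 (limma adjusted p = 2.79e-09). For RPS2 the pseudogenes took 19.7%, 19.9% and 12.2%, and for RPL7 18.1%, 18.7% and 18.4%. With pseudogenes added for every member, 18 passed between HCT116 and DLD1, 70 between CAL51 and HCT116 and 70 between CAL51 and DLD1. Without added pseudogenes, 63.6%, 64.6% and 62% of all genes tested passed in either direction, in the same order. Whether the copies are transcribed or receive reads of the parent gene was not tested.

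**Figure D3:**
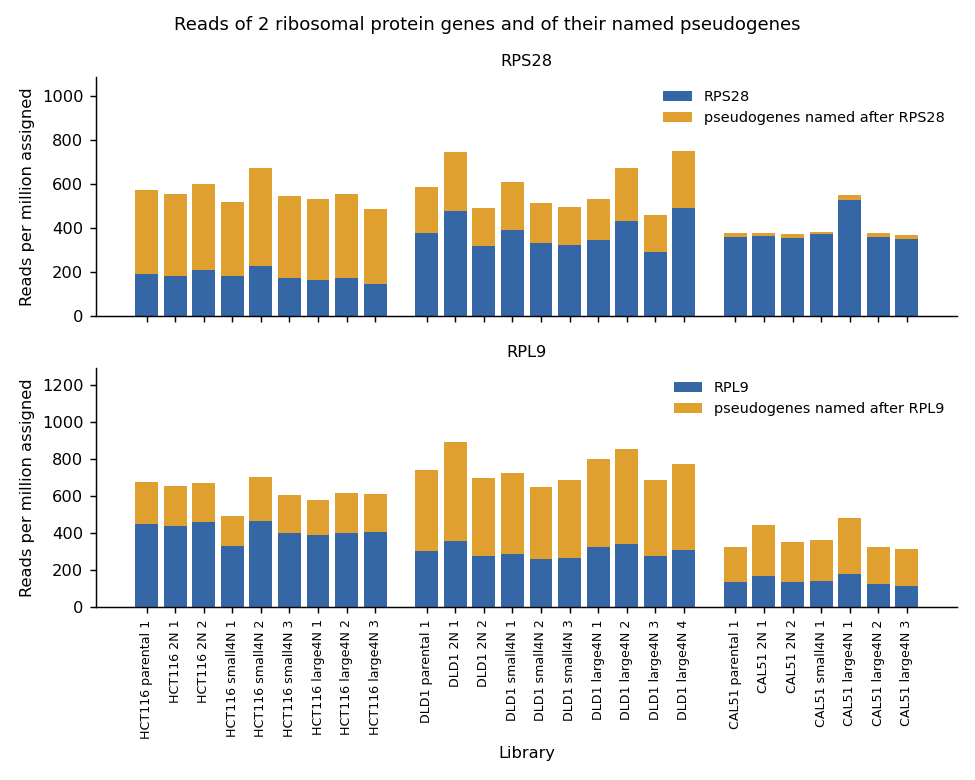
Reads, in RPM, assigned to RPS28 (top) and RPL9 (bottom) and to the pseudogenes named after each, stacked for each of the 26 libraries. The pseudogene part of the RPS28 bar has a median of 67.1% (HCT116), 35.5% (DLD1) and 3.97% (CAL51), and that of RPL9 of 33.5%, 60.3% and 61.9%.

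Genes that work with the members were set beside them in the same comparisons. Over all genes tested, 32.8% were higher and 31.8% lower in CAL51 than in HCT116, and 32.2% higher and 29.7% lower than in DLD1. Between HCT116 and DLD1, 33% were higher and 30.6% lower. FAU, which encodes a ribosomal protein fused to a ubiquitin-like protein, and RACK1, a scaffold on the small subunit, fell against either line, with differences of -0.78 ± 0.12 and -0.88 ± 0.12 for RACK1. Of 21 other TOP genes tested, 13 fell and 2 rose against HCT116, and 16 fell and 2 rose against DLD1. EEF2, the translocation factor of elongation, differed by -1.30 ± 0.13 against HCT116 and -1.07 ± 0.13 against DLD1. VIM, a filament protein of mesenchymal cells, and SNHG5, a host of small nucleolar RNAs, were the 2 that rose, VIM by 3.68 ± 0.28 and 4.11 ± 0.28. Of 23 translation factors outside that list, 5 rose and 4 fell against HCT116, and 1 rose and 11 fell against DLD1. Of 77 genes for mitochondrial ribosomal proteins, 25 rose and 16 fell against HCT116, while 10 rose and 29 fell against DLD1, and 9 rose and 42 fell between HCT116 and DLD1.

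Among 19 regulators tested, 6 rose and 4 fell against HCT116, and 7 rose and 3 fell against DLD1. Of all genes tested, 32.8% rose and 31.8% fell against HCT116, and 32.2% rose and 29.7% fell against DLD1. MYC, a transcription factor that drives ribosome production, had 31.0 to 261 FPKM in HCT116, 61.7 to 114 in DLD1 and 16.7 to 43.05 in CAL51. The CAL51 and DLD1 libraries did not overlap, and the differences were -2.44 ± 0.32 against HCT116 (limma adjusted p = 2.77e-06) and -1.48 ± 0.32 against DLD1 (adjusted p = 0.000615). TSC2, a brake on mTOR, rose by 0.56 ± 0.08 and 0.74 ± 0.08. LARP1, which binds TOP tracts, rose by 0.49 ± 0.12 against HCT116, and its difference against DLD1, -0.27 ± 0.12, did not pass (adjusted p = 0.0554). The part of these genes in the member levels was not tested.

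The comparison of large with small 4N clones asks what accompanies cell size at equal ploidy. No member passed over the mean of the 3 lines (0.398% of all genes did), nor within any line by itself (0.445% of all genes in HCT116, 0.472% in DLD1, 1.52% in CAL51), by limma with Benjamini-Hochberg adjustment. At an unadjusted p under 0.05 there were 0, 2, 0 and 2 members in the same order. The voom test also called 0 in each, with 0, 2, 0 and 0 at an unadjusted p under 0.05. The median member difference, large minus small, was 0.03 for the mean of lines, 0.12 (HCT116), 0.10 (DLD1) and -0.16 (CAL51), with 49, 62, 66 and 11 of 73 members higher. A test of the difference between lines called 0 members for each pair of lines, with 0.0876 as the smallest limma adjusted p (HCT116 against CAL51). Over all 14835 genes that test called 23 between HCT116 and DLD1, 228 between HCT116 and CAL51 and 99 between DLD1 and CAL51. For the mean of lines, the 95% interval of the difference lay within 1.5-fold either way in 73 of 73 members. In CAL51, with 1 small clone, that held for 7 members, and a 2-fold bound held for 72. These bounds are for levels relative to the library, since FPKM is scaled to its size. A change of all RNA per cell with cell size would not appear in them.

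These medians turned on single clones. In HCT116 the median was -0.01 without small clone 1. The mean of lines became -0.05 without CAL51 large clone 1, and the CAL51 median itself was -0.37 without that clone and -0.04 without large clone 3. The median in DLD1 kept its sign with each clone left out, between 0.08 and 0.16.

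Members at the ends of each contrast did not pass either. In HCT116 these were RPLP1 and RPL4, both on chromosome 15, and RPL26, the last at 0.39 ± 0.14. RPL4, which lines the exit tunnel of the large subunit, had 301, 393 and 275 FPKM in the small clones 1 to 3, 397, 462 and 426 in the large clones, and 399 and 560 in the 2N clones. The large clones were all above the small ones, by 0.42 ± 0.17 (limma adjusted p = 0.252). For RPLP1 the small clones had 359, 386 and 299 FPKM and the large clones 455, 495 and 451, again without overlap, a difference of 0.43 ± 0.21 (adjusted p = 0.328). The chromosome 15 of 2 small clones is described below.

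In DLD1 the highest were RPS14, RPL4 and RPS23 and the lowest was RPL22. RPL22, a large-subunit protein with a close paralog in RPL22L1, had 32.8, 32.1 and 34.1 FPKM in the small clones and 31.9, 29.5, 22.7 and 26.4 in the large clones, all below the small ones. Its difference was -0.26 ± 0.14 (limma adjusted p = 0.852). RPS14, a protein of the decoding platform, had 103, 144 and 138 FPKM in small clones and 159, 148, 140 and 172 in large clones, which overlapped, with a difference of 0.28 ± 0.19. In CAL51 RPS29, a zinc-binding protein of the small subunit head, had 14.6 FPKM in the small clone and 13.2, 6.87 and 7.80 in the large clones, a difference of -0.65 ± 0.31 (adjusted p = 0.400).

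Tetraploid clones, small and large weighted equally, were compared with the 2N clones to ask what accompanies genome doubling. The 2N clones had not been exposed to the blocking drug, so doubling and drug exposure cannot be told apart. These contrasts share their 4N libraries with those above. No member passed for the mean of lines (0.00674% of all genes), nor within a line (0.108% of all genes in HCT116, 0.0337% in DLD1, 0.108% in CAL51) by limma. At an unadjusted p under 0.05 there were 0, 0, 1 and 0 members, and voom called 0, with 0, 1, 1 and 0 unadjusted. The median 4N minus 2N difference was -0.02 for the mean of lines and -0.07 (HCT116), -0.12 (DLD1) and 0.14 (CAL51) by line, with 26, 20, 0 and 64 of 73 members higher. The mean of lines was 0.05 without DLD1 2N clone 1 and -0.08 without DLD1 2N clone 2. The DLD1 value rested on 2N clone 1: it was 0.05 without that clone and -0.33 without 2N clone 2. In HCT116 it was 0.01 without small clone 1, and in CAL51 0.03 without large clone 1. For the mean of lines the 95% interval lay within 1.5-fold in 73 of 73 members, in HCT116 in 62, in DLD1 in 55 and in CAL51 in 39. Here too the levels are relative to the library, and a change of all RNA per cell with ploidy would not appear.

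RPS19 was the highest for the mean of lines at 0.13 ± 0.12 and in CAL51 at 0.34 ± 0.22. In CAL51 its 2N clones had 173 and 169 FPKM, the small clone 221 and the large clones 335, 183 and 155, so that the classes overlapped. RPS29 was the lowest for the mean of lines at -0.18 ± 0.13 (limma adjusted p = 0.979). In HCT116 RPL4 was lowest at -0.35 ± 0.17 (adjusted p = 0.580), with the values given above. In DLD1 RPL26 was lowest at -0.36 ± 0.14 (adjusted p = 0.854), with 20.0 and 18.1 FPKM in the 2N clones, 15.3, 13.1 and 14.4 in the small and 16.7, 14.6, 14.4 and 14.4 in the large clones, all below both 2N clones.

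What varied was the group as a whole, from library to library within a class. Every clone had its own library, so clone, culture and library preparation cannot be told apart. For each library, the deviation of every member from the mean of its line was taken on the log2(FPKM + 1) scale. In HCT116 small clone 1 the median deviation was -0.32 and 0 of 73 members were above the line mean. The median was 0.30 in DLD1 2N clone 1 and 0.47 in CAL51 large clone 1, with 72 of 73 above in each. Among the large CAL51 clones, clones 2 and 3 had medians of -0.21 and -0.23, with 6 and 1 members above, so that clones of the same class lay on opposite sides of the mean. The epithelial keratin KRT8, picked after its values were seen, was highest in CAL51 in the 3 libraries with a positive member median. It had 1964 FPKM in large clone 1, 559 in 2N clone 1, where that median was only 0.04, and 509 in the small clone. In the other 4 it had 32.5 to 182. The 10 colon epithelium markers summed to 204 to 3890 FPKM in CAL51, with a median of 450 and 3 of 10 at a median of at least 1 FPKM. CAL51 large clone 1 was also the deepest library, with 44.5 M reads. The part of KRT8 level and depth in the member deviation was not tested. DLD1 large clone 3, at -0.17, was apart from the other large clones of that line, which lay between 0.07 and 0.09. HCT116 small clone 1 also had 31.0 FPKM of MYC, against 128 to 261 in the other HCT116 libraries, and its part in the low member level was not tested.

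**Figure D4:**
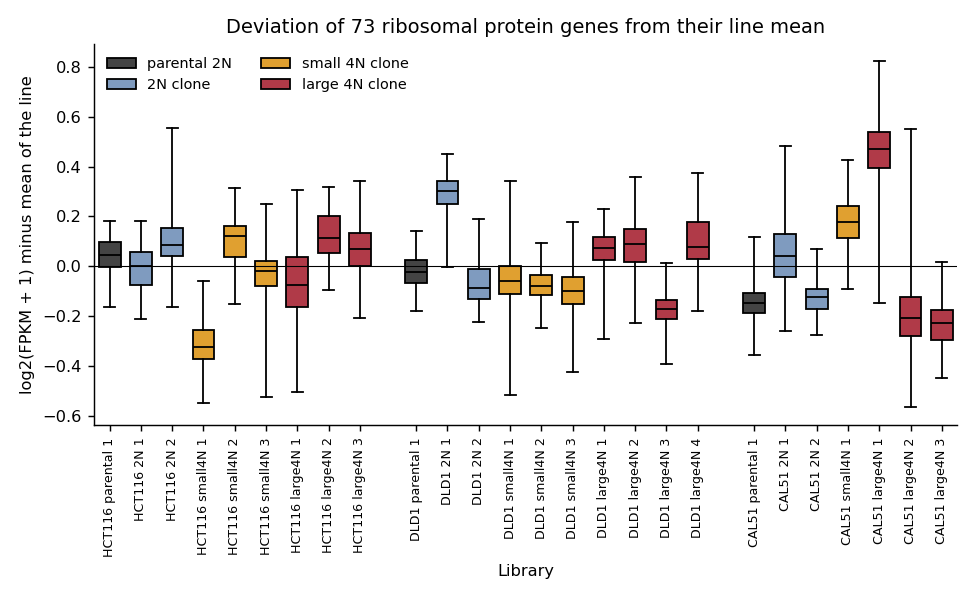
Deviation of the 73 genes from their line mean on the log2(FPKM + 1) scale in each library, with the median, the quartiles and the full range. HCT116 small clone 1 lies at -0.32, DLD1 2N clone 1 at 0.30 and CAL51 large clone 1 at 0.47.

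As a description, the line-centred values of a member correlated with the mean of the other 72 with a median r of 0.87 over 26 libraries, from 0.26 for RPL22 to 0.95 for RPS3, and 72 members were over 0.5. All points share their library and its scaling. The median r was 0.82 without CAL51 large clone 1, and within lines it was 0.82 (HCT116), 0.87 (DLD1) and 0.95 (CAL51). The 4360 other genes with a mean of at least 10 FPKM had a median r of 0.14 with the member mean, with quartiles of -0.10 and 0.35. Taking the library median away reduced the median SD of a member from 0.21 to 0.10. Apart from RPL22, the least alike were RPL27A with an r of 0.59 and RPL26 with 0.62.

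The most variable members around their line mean were RPS29 with an SD of 0.28, RPLP1 with 0.26, RPL24 with 0.25, RPL29 with 0.24 and RPL4 with 0.24. The least variable were RPS3 with 0.16, RPL19 with 0.16, RPS27A with 0.17, RPL30 with 0.17 and RPL6 with 0.17. Outside the group, the 10 genes most alike in profile included ZNF581, RACK1, SLC3A2, EIF3E, LONP1, MPST, EEF2, WDR18 and TIMM9, with r from 0.79 to 0.82 over the same 26 libraries.

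Beneath the common movement, members on chromosomes that were shifted in a 4N clone mostly had the sign of that shift. For each of 17 4N clones, every chromosome's other genes were compared with the 2N libraries of the line, as a median relative to all genes of the clone, and each member relative to the other members of that clone. A chromosome was called shifted at a median of at least 0.2 on the log2 scale. Of 18 shifts, 15 involved a chromosome with members, and in 14 of these the median member had the sign of the chromosome. The exception was chromosome 13 of CAL51 large clone 1, at -0.31, where its only member RPL21 stood at 0.02. Of 51 pairs of a member and a clone on shifted chromosomes, 48 had the sign of the chromosome. Those were 23 of 23 on raised chromosomes and 25 of 28 on lowered ones. The median was 0.19 over the raised and -0.32 over the lowered pairs. Of the 23 raised pairs, 12 came from chromosome 19 of CAL51 large clone 1, which was also the deepest library. Over all 1241 pairs r was 0.46, as a description, since members on a chromosome share its shift and clones of a line share their 2N reference. The genotype of the clones was not read from DNA here.

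On chromosome 15 of HCT116 small clone 3, at -0.45, RPL4 stood at -0.63 and RPLP1 at -0.61, and in small clone 2, at -0.22, they stood at -0.28 and -0.40. HCT116 large clone 1 had chromosome 1 at -0.30, with RPS27 at -0.50, RPL11 at -0.34, RPL5 at -0.31 and RPL22 at -0.23. All members on those chromosomes were thus below the other members of their clone. In DLD1 large clone 1, chromosome 3 was at -0.27 and 7 of 7 members were below, from -0.45 for RPL15 to -0.23 for RPL24. DLD1 small clone 1 had chromosome 5 at -0.29, where RPS14 and RPS23 both stood at -0.47 and RPL37 at 0.07. In CAL51 large clone 2 chromosome 11 was at 0.27 and 5 of 5 members were above, RPL27A most with 0.88. Chromosome 19 of CAL51 large clone 1, at 0.27, had 12 of 12 members above, RPS19 most with 0.50.

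**Figure D5:**
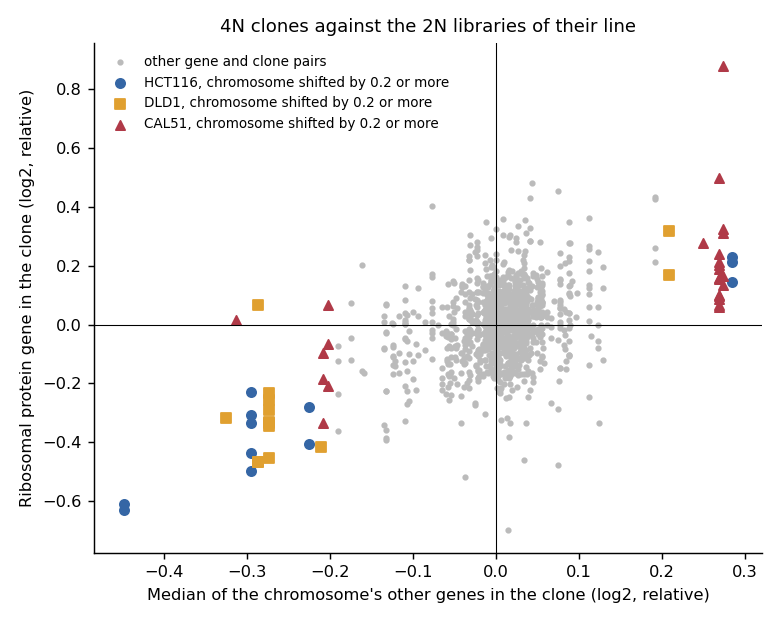
Each point is a member in a 4N clone, 1241 in all, with the shift of its chromosome's other genes on the x axis and the member relative to the other members of the clone on the y axis, both as log2 differences from the 2N libraries of the line. On chromosomes shifted by at least 0.2, 48 of 51 points have the sign of the chromosome.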

How the data were processed

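The 26 libraries held poly-A RNA and kept the strand, per the labels. The submitters' processing notes name fastp, HISAT2 (2.0.5), featureCounts (1.5.0-p3), DESeq2 and the build GRCh38. The deposited FPKM values of 58735 genes were used as the authors gave them. Deposited gene lengths were set beside transcript lengths of the GENCODE release 29 basic annotation. FPKM values were turned back into reads, which were whole to within 0.01 for 100% of values in every library, for depth, read shares and the voom alternative.

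Genes with at least 1 FPKM in 3 or more libraries (14835) were fitted as log2(FPKM + 1) by limma (3.58.1, under R 4.3.3), with 12 line and class means, an intensity trend and moderated variances (14 residual and 3.84 prior degrees of freedom). Line contrasts weighted the 4 classes of a line equally. The 4N minus 2N contrasts used the 2N clones without the parental library. Tests were two-sided, with Benjamini-Hochberg adjustment over all genes tested and a threshold of 0.05. Fold changes are on the log2(FPKM + 1) scale and understate those of low genes. Since the replicates are separate clones, each with its own library, a p value reflects how clones of a class and their libraries vary together. CAL51 has 1 small clone, whose variability was taken from the other groups.

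The members, lists and tests were chosen with earlier results of these data known. Genes were named as the 5 highest and lowest by mean, by spread and by line difference past the threshold, as the 3 highest and lowest where none passed, by the lowest likeness to the group, and from the lists, and a few genes chosen this way are not reported here. RPS3 and RPL27A outside their own contrasts, KRT8 in CAL51, and genes named as examples on shifted chromosomes, were chosen after their values were seen. Alternatives were another pseudocount, filters, median-ratio and quantile scaling, voom, the lines compared alone, added pseudogenes, a replicate block, no parental libraries and each clone left out, and 2 were added after seeing the data. The procedure was tested on simulated data. Descriptions and figures used Python version 3.11.15, numpy 2.4.6, pandas 2.3.3 and matplotlib 3.10.9.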

Additional observations from a re-analysis of the deposited data

Results flagged for a closer look

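Of 69 groups of 4 to 10 libraries examined for a library far from the others, 6 held one, where chance gives about 1 in 20, or 3.45 groups. HCT116 small clone 1 had a median member deviation of -0.323 against -0.0754 in the nearest library of that line. Among the large DLD1 clones, clone 3 had a median deviation of -0.173 against 0.0736 in the nearest. RPL9 in HCT116 small clone 1 had 61.4 FPKM, with 76.9 next. RPLP2 in DLD1 2N clone 1 had 753.4 FPKM, with 632.7 next. CAL51 large clone 1 stood apart in RPS28, with 272.5 FPKM against 179.6 in the next library, and in RPLP1, with 481.7 against 339.6. The technical quality of these clones was not tested beyond the depth and mitochondrial shares given above.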

How the results depend on the processing

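Counts of members past the threshold between lines held within 1.5 times under the alternatives run, except 12 between HCT116 and DLD1 with the 2N clones and parental libraries only, where RPL13 was at 0.48 (limma adjusted p = 0.0700). Across all alternatives they ran from 12 to 29, 64 to 71 and 67 to 70 (HCT116 against DLD1, CAL51 against HCT116, CAL51 against DLD1). With each clone left out they ran from 18 to 22, 68 to 72 and 68 to 70. In the fit reported above, 63.6%, 64.6% and 62% of all genes tested passed in either direction, in the same order. The member medians stayed between -0.88 and -0.59 for CAL51 against HCT116 and between -0.90 and -0.68 against DLD1. The other 8 contrasts kept 0 with every alternative and every clone left out. Adding pseudogenes, rescaled by gene length, reversed RPS28 between CAL51 and HCT116 (-0.563, limma adjusted p = 0.00222). Between HCT116 and DLD1, RPL9 and RPS28 changed sign and no longer passed (-0.182 and 0.0131, limma adjusted p = 0.20 and 0.952). Quantile scaling turned the member median of large minus small clones over the lines to -0.01 and of 4N minus 2N in CAL51 to -0.01, and the cause was not tested. Replicate numbers name clones and paired nothing in the labels, and same-numbered clones correlated between -0.0558 and 0.205. With the replicate block 0 members passed in each of these 8 contrasts, and the CAL51 large minus small median became 0.17. No block could be fitted between lines, since clones are nested in lines. With 1 small clone, the CAL51 contrast resolves a member to a median of 0.56 on the log2 scale (from the estimate to either end of the 95% interval).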

Other observations

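Of 6 tested paralogs of the ribosomal proteins, which fall outside the naming rule, 3 rose and 1 fell in CAL51 against each line, where 32.8% of all genes were higher than in HCT116 and 32.2% higher than in DLD1. RPL39L, a paralog of RPL39 known from male germ cells and some cancers, had 11.2 to 20.4 FPKM in the 7 CAL51 libraries (324 to 876 reads) and was listed at 0 in all 9 HCT116 and all 10 DLD1 libraries. RPL39 itself had medians of 111 FPKM in HCT116, 110 in DLD1 and 66.0 in CAL51. RPS27L, a paralog induced by p53, had medians of 6.44, 2.68 and 12.7 FPKM in the same order and rose in CAL51 by 0.85 ± 0.10 against HCT116 (limma adjusted p = 4.54e-07) and by 1.75 ± 0.10 against DLD1 (adjusted p = 2.14e-11). RPL26L1 rose by 0.99 ± 0.13 and 0.54 ± 0.13, opposite to its parent RPL26. RPL22L1 was lower than in HCT116, at -0.64 ± 0.24, and RPL7L1 lower than in DLD1, at -0.55 ± 0.10.

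RPL22, which is known to repress RPL22L1, and RPL22L1 itself had a line-centred r of -0.03 over 26 libraries, given as a description. In CAL51 large clone 1, where members stood highest, RPL22L1 had 152 FPKM, while the remaining CAL51 libraries had 43.0 to 51.8, and RPL22 had 17.2 against 16.7 to 22.7. RPL26 and RPL26L1 had an r of 0.61 over the same libraries.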
